A study of Mus musculus with 22 samples.

Results

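The response to DSS was followed in mice whose intestinal epithelium lacks PPAR γ, by comparing 5 arrays taken on day 2 of DSS with 3 arrays taken on day 0. These 8 of the 22 arrays of the study were chosen by their labels alone (Villin-CRE+ genotype, day of DSS), and all genes with a single chosen probe set, 18194 in number, were considered. All mice carried PPAR γ fl/fl alleles. The study used both a mixed FVB/C57BL/6 and a C57BL/6 background, and the labels do not give that of the arrays. VC+ mice also carried Cre recombinase under the Villin promoter, which is active in epithelial cells of the small and large intestine, so that macrophages, T cells and stromal cells kept the gene, and VC- mice (3 arrays at day 0 and 3 at day 2) carried no Cre. DSS (dextran sodium sulfate, 2.5% in the drinking water) injures the colonic epithelium; mice at day 0 received none. RNA came from homogenized colon, so the signal of a gene sums over all cell types present, and fewer cells of a type cannot be told apart from less RNA per cell. The ages of the mice are not given in the sources used here.

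The lining of the colon is renewed from stem cells at the base of the crypts. Wnt signals from the surrounding stroma keep these cells dividing and switch on target genes such as Ascl2, Axin2 and Ephb3, and daughter cells divide several times before they mature into absorptive colonocytes or mucus-secreting goblet cells. DSS erodes this lining, and the injury is followed by recruitment of leukocytes, remodelling of the matrix and a wave of epithelial repair. PPAR γ is a nuclear receptor for fatty acids that is abundant in mature colonocytes and switches on genes of lipid handling.

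Few genes of VC+ mice passed the test on day 2 of DSS, and 3 of those that did are Wnt targets of the crypt base. Of 9097 genes tested in the upper 50% by variability, 4 fell and 1 rose (limma over all 22 arrays, two-sided, Benjamini-Hochberg adjusted p under 0.05), which is 0.055% of the genes tested. Without adjustment, p was under 0.05 for 228 genes higher at day 2 (2.51%) and for 370 genes lower at day 2 (4.07%). All 5 day 2 arrays lay above all 3 day 0 arrays for 379 genes (4.17%) and below them for 570 (6.27%). The median log2 fold change over all genes tested was -0.02. Whether the arrays stand for different mice is not in the labels, so p-values measure the spread between these samples, which may be technical.

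The arrays differed in ways that the day of DSS does not label. Hoxb13, a homeobox gene of the most distal gut, had log2 signals of 12.42, 3.09 and 2.88 on day 0 replicates 1, 2 and 3, and of 12.42, 3.07, 9.45, 10.44 and 11.19 on day 2 replicates 1 to 5. Fabp6, the bile acid binding protein best known from the ileum, was 6.64, 13.52 and 14.57 at day 0 and 5.51 to 8.19 at day 2. Day 0 replicates 2 and 3 were thus low in Hoxb13 and high in Fabp6, although all samples carry the same tissue label. Xist, the RNA of the inactive X chromosome, was above 11 on day 0 replicate 3 and day 2 replicates 4 and 5 and near 2 on the other 5 arrays. Differences are therefore also given within the 5 arrays with high Hoxb13 (1 of day 0 and 4 of day 2) and within the 3 with low Hoxb13 (2 of day 0 and 1 of day 2), as values with no test. Grouping by Hoxb13 does not make the arrays alike in other genes. On day 2 replicate 2, which is low in Hoxb13, Fabp6 was at most 8.19, against 13.52 and 14.57 on day 0 replicates 2 and 3. The pancreatic transcript Prss2, which is high on some arrays of other groups, was between 3.62 and 4.20 on these 8 arrays. Actg2, the actin of visceral smooth muscle, was at 12.70 or above on all 8 arrays, so smooth muscle RNA was present in each sample. The labels call the tissue mucosa, and which muscle layer this RNA came from was not tested.

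Pparg itself was lower in VC+ mice than in VC- mice before DSS. Its log2 signal was 8.62, 8.50 and 8.83 in VC+ mice at day 0, and 9.58 to 9.63 in VC- mice. On day 2 the VC+ arrays read 6.91, 9.54, 8.27, 6.87 and 6.96, with replicate 2 above and the other 4 below all day 0 arrays (log2 fold change -0.94, SE 0.76, adjusted p = 0.95). VC- mice had 9.87 to 10.96 at day 2, without overlap with the VC+ arrays. Where the probes lie relative to the deleted part of the gene is not given in the sources used here, so the signal is no full check of the deletion.

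Ascl2, a transcription factor that sets the identity of intestinal stem cells, had a log2 signal of 5.63, 6.55 and 5.63 at day 0 and of 3.32, 3.33, 3.36, 3.38 and 3.29 at day 2. All day 2 arrays sat together near the low end of the arrays' range (41.7% of all values in the table are under 3), well below day 0. Ascl2 fell by 2.60 on the log2 scale (SE 0.40, adjusted p = 0.015), measured against a day 2 signal that is not shown to be above background. Axin2, a negative feedback regulator that the Wnt pathway itself switches on, had 6.65, 6.88 and 6.92 at day 0 and 4.87, 5.04, 4.90, 5.18 and 4.81 at day 2. The groups were separated by more than the spread within either, and Axin2 fell by 1.86 (SE 0.27, adjusted p = 0.013), or 3.62-fold. Ephb3, a receptor that keeps dividing cells at the crypt base, had 4.59, 4.60 and 4.32 at day 0 and 2.92, 2.70, 3.21, 3.51 and 3.29 at day 2. Again every day 2 array was lower, and Ephb3 fell by 1.38 (SE 0.25, adjusted p = 0.041).

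Ikzf3, which encodes the lymphocyte transcription factor Aiolos, had 4.64, 4.89 and 5.30 at day 0 and 3.20, 3.24, 3.15, 2.95 and 2.66 at day 2 (log2 fold change -1.90, SE 0.34, adjusted p = 0.041). Its groups did not overlap either, and its day 2 signals, like those of Ephb3, also lay near the low end of the range. Insig1, which holds the SREBP proteins in the endoplasmic reticulum when sterols are plentiful and is itself an SREBP target, was the gene that rose. Its log2 signal was 9.37, 8.23 and 9.35 at day 0 and 10.78, 10.11, 10.41, 11.02 and 10.80 at day 2. The lowest day 2 array was above the highest day 0 array, and the rise was 3.12-fold (log2 fold change 1.64, SE 0.28, adjusted p = 0.033).

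**Figure D1:**
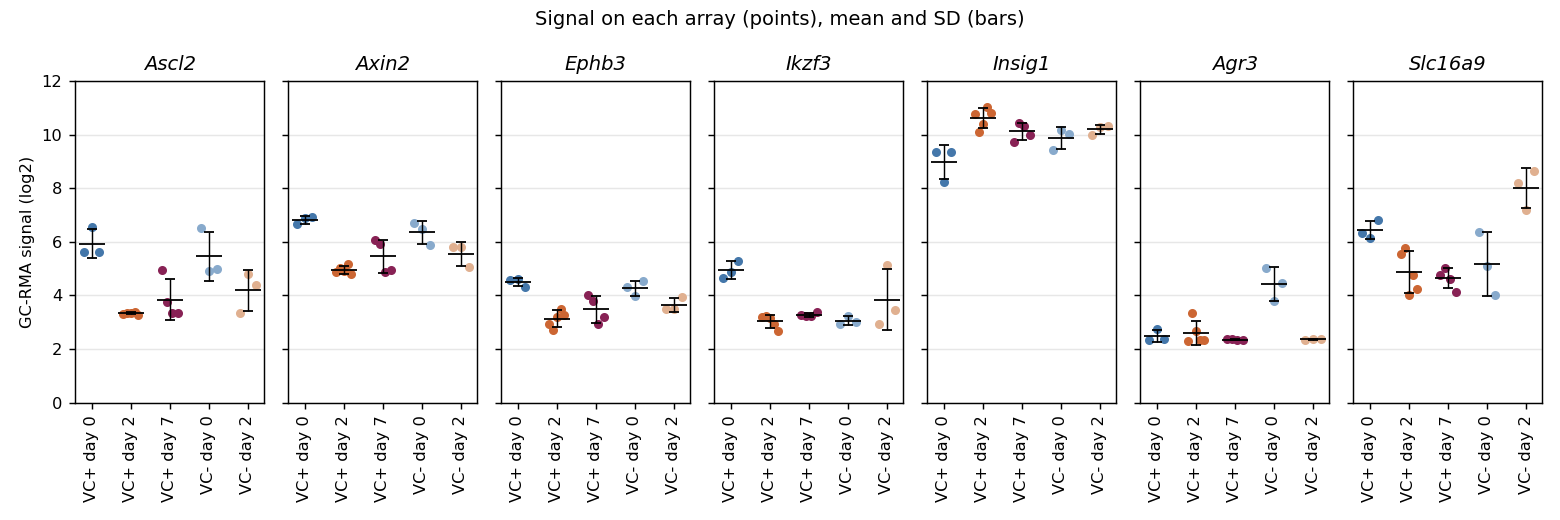
Log2 GC-RMA signal (y axis) of the 5 genes that passed the test at day 2 in VC+ mice and of the 2 genes whose responses differed between genotypes, with each array as a point and the mean and SD of each group as bars. Ascl2, Axin2, Ephb3 and Ikzf3 are lower and Insig1 is higher on every VC+ day 2 array than on every VC+ day 0 array.

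In these 5 genes the days did not overlap, so the sign of a difference within arrays grouped by Hoxb13 was fixed in advance. Only the sizes are given here, as a description. Among arrays with high and with low Hoxb13, Ascl2 differed by -2.30 and -2.76, Axin2 by -1.71 and -1.86 and Ephb3 by -1.36 and -1.76. Ikzf3 differed by -1.65 and -1.86, and Insig1 by 1.39 and 1.32. The calls depended on single arrays and on the setting. Leaving out each of the 8 arrays in turn ended the call in 8 cases for Ephb3, 7 for Ikzf3, 5 for Insig1 and 2 each for Ascl2 and Axin2, and without day 0 replicate 2 none of the 5 passed, with adjusted p from 0.177 to 0.444. With Hoxb13 as a covariate the calls of Ephb3, Ikzf3 and Insig1 were lost (adjusted p = 0.0781, 0.0818 and 0.0781), and with the replicate number as a block all 5 were (0.0714 to 0.302). The fold of Ascl2, Axin2 and Ikzf3 rests on the most variable probe set of each gene, and over all their probe sets the difference of the group means ranged from -2.60 to -0.44, from -1.86 to -0.14 and from -1.90 to 0.07.

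Genes of the crypt base were low as a group. Of 19 tested members of a list of crypt base and Wnt target genes, 16 were lower at day 2, with a median log2 fold change of -1.03. An unadjusted p under 0.05 was reached by 10, all lower, against 4.07% of all genes tested, and 8 did not overlap between the days, against 6.27%. Of the 10, Ascl2, Axin2 and Ephb3 passed the adjusted test. The median was -0.74 among arrays with high Hoxb13 and -0.85 among those with low Hoxb13. Lgr5, the receptor that marks crypt base stem cells, had 4.60, 4.45 and 4.60 at day 0 and 3.53, 3.39, 3.27, 3.41 and 3.40 at day 2 (log2 fold change -1.15, adjusted p = 0.58). The groups were far apart relative to their own spread here, but the pooled spread over all 6 groups was wider. The day 2 signals of Lgr5, like those of Ascl2, were near the low end of the range and are not shown to be above background. Rnf43, an inhibitor of Wnt receptors that Wnt induces, had 5.78, 6.39 and 6.71 at day 0 and 4.46, 5.02, 4.46, 5.20 and 4.82 at day 2 (log2 fold change -1.50, adjusted p = 0.50). Cdca7, a regulator of DNA methylation in dividing cells, had 8.84, 8.62 and 8.49 at day 0 and 6.13 to 7.49 at day 2 (log2 fold change -1.94, adjusted p = 0.43).

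Not every member of the list was low. The arrays of the 2 days overlapped for the transcription factor gene Sox9 (log2 fold change -0.15), the feedback inhibitor Nkd1 (0.16), the stem cell surface protein Prom1 (0.05) and the Wnt inhibitor Apcdd1 (0.47). Notum, Lef1, Sp5 and Olfm4 were between 2.12 and 2.84 on all 8 arrays, near the floor of the arrays, and were not tested. Slc12a2, the basolateral chloride importer of crypt cells, was 11.95, 12.08 and 12.44 at day 0 and 10.44 to 11.64 at day 2 (log2 fold change -1.19, adjusted p = 0.58). Hopx, a marker of reserve stem cells that was not on the list, had 9.66, 9.65 and 9.70 at day 0 and 7.41, 7.70, 6.89, 8.35 and 7.74 at day 2, a difference of -2.06 (adjusted p = 0.22) that was nearly equal among arrays with high (-2.07) and low (-1.98) Hoxb13. The ligands, receptors and secreted inhibitors of the Wnt pathway did not show this pattern. Of 20 tested, 14 were higher at day 2, with a median of 0.34, and Frzb, a secreted Wnt antagonist of the stroma, was the single one with an unadjusted p under 0.05 (log2 fold change 2.40, adjusted p = 0.72). The share of all genes tested that were higher at this level was 2.51%. Of the 20, 4 did not overlap between the days, all higher at day 2, against 4.17% of all genes tested. The mean of this list was -0.30 to -0.15 on the day 0 arrays and 0.01 to 0.21 on the day 2 arrays (log2, relative to the 8 arrays).

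Genes of cell division were lower at day 2 without exception among those tested, though none passed the adjusted test. All 42 DNA replication genes had a negative log2 fold change, with a median of -0.87, and 27 had an unadjusted p under 0.05 and 32 did not overlap between the days, against 4.07% and 6.27% of all genes. All 38 mitosis genes were lower too, with a median of -1.34, 18 with an unadjusted p under 0.05 and 34 without overlap. Pclaf, a partner of the sliding clamp PCNA, had 6.72, 7.81 and 7.34 at day 0 and 3.23, 3.29, 5.88, 5.00 and 4.85 at day 2 (log2 fold change -2.84, adjusted p = 0.38). Mcm6, a subunit of the replicative helicase, had 9.38, 9.99 and 9.95 at day 0 and 6.42, 7.31, 8.63, 8.93 and 7.91 at day 2 (log2 fold change -1.93, adjusted p = 0.52). Day 2 replicates 1 and 2 were the lowest for both genes, as they were for the mean of the mitosis list, which was 0.79, 0.80 and 0.88 on the day 0 arrays and -0.96, -1.27, -0.18, 0.02 and -0.08 on day 2 replicates 1 to 5. The 5 day 2 arrays thus formed a wide range that lay wholly below a narrow one.

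Mki67, the proliferation antigen Ki-67, had 10.09, 9.84 and 10.06 at day 0 and 7.75, 7.62, 9.01, 9.57 and 8.75 at day 2 (log2 fold change -1.46, adjusted p = 0.70). Cdk1, the kinase that starts mitosis, had 8.63, 8.63 and 8.49 at day 0 and 6.81, 6.08, 7.74, 7.84 and 7.79 at day 2 (log2 fold change -1.33, adjusted p = 0.75). Top2a, which untangles sister chromatids, had 9.45, 9.47 and 9.65 at day 0 and 7.26, 6.89, 8.38, 8.55 and 8.05 at day 2 (log2 fold change -1.70, adjusted p = 0.58). In all 3 genes the day 0 arrays lay close together and every day 2 array was below them. The differences were -1.32, -1.09 and -1.39 among arrays with high Hoxb13 and -2.33, -2.48 and -2.67 among those with low Hoxb13. Genes of cell cycle arrest did not mirror this. The 20 tested p53 targets and cell cycle brakes had a median of 0.12. Ribosome biogenesis, which growing cells need, was lower in 19 of 21 genes with a median of -0.32, and Nolc1, a nucleolar chaperone (log2 fold change -1.10, adjusted p = 0.64), and Ncl, the nucleolar protein nucleolin (-0.68, adjusted p = 0.75), were the 2 with an unadjusted p under 0.05. The share of all genes tested that were lower at this level was 4.07%.

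Many genes of mitosis carry a short element, the CHR (TTTGAA), close to their start, which the DREAM and MuvB complexes bind. In the 250 bases before the start site, read on both strands in RefSeq promoters (GRCm38.p6), TTTGAA was present for 12 of 34 mitosis genes (35.3%), for 2 of 35 DNA replication genes (5.71%) and for 16.3% of all 27025 promoters. The sequences of 3 genes that were lower at day 2 are given because they hold the element close to the start, with the shown TTTGAA or its reverse complement in capitals (at -116 and -98 for Mki67, -15 for Cdk1 and -23 for Top2a). That of Mki67 covers chr7:135716427-135716522 (minus strand), that of Cdk1 covers chr10:69352913-69352972 (minus strand) and that of Top2a covers chr11:99024190-99024257 (minus strand).
Mki67: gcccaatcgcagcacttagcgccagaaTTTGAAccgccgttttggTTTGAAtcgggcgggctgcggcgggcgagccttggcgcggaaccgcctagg
Cdk1: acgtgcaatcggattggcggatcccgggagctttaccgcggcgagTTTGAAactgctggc
Top2a: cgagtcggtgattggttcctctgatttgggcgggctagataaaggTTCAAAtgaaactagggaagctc
The match is a description of the sequence and was not tested for a role in these samples. The letters CTTTGNT of a TCF/LEF site, which overlap those of the CHR in TTTG, were in none of 12 promoters of the crypt base list and in 16.1% of all promoters.

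Sterol synthesis was the metabolic pathway that stood higher at day 2. Cells make cholesterol from acetyl-CoA through mevalonate and squalene, and the SREBP transcription factors switch on nearly every enzyme of the route when sterols in the endoplasmic reticulum run short. Of 27 tested genes of cholesterol synthesis and uptake, 23 were higher at day 2, with a median log2 fold change of 0.74. An unadjusted p under 0.05 was reached by 11 of them, all higher, and 10 did not overlap between the days, against 2.51% and 4.17% of all genes tested. Of these, Insig1 passed the adjusted test. The mean of the list was -0.13, -0.64 and -0.60 on day 0 replicates 1, 2 and 3 and 0.61, -0.04, 0.35, 0.13 and 0.32 on day 2 replicates 1 to 5 (log2, relative to the 8 arrays). The median was smaller within arrays grouped by Hoxb13, at 0.47 among those with high and 0.41 among those with low Hoxb13.

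Along the pathway, the first enzyme, Hmgcs1 (HMG-CoA synthase), had 10.10, 9.32 and 9.66 at day 0 and 11.78, 10.61, 11.73, 11.28 and 11.38 at day 2 (log2 fold change 1.66, SE 0.36, adjusted p = 0.22). Fdft1, which commits the pathway to sterols as squalene synthase, had 10.52, 10.40 and 10.42 at day 0 and 12.36, 11.36, 12.06, 11.76 and 11.78 at day 2 (1.42, SE 0.37, adjusted p = 0.32). Every day 2 array exceeded every day 0 array in both. Sqle, the squalene epoxidase, had 10.55, 9.23 and 9.62 at day 0 and 11.88, 10.62, 11.74, 10.99 and 11.02 at day 2 (1.45, SE 0.37, adjusted p = 0.31). Msmo1, a sterol C4 demethylase, had 11.34, 10.40 and 10.40 at day 0 and 12.89, 11.53, 12.66, 11.92 and 12.25 at day 2 (1.54, SE 0.37, adjusted p = 0.27). Cyp51, the lanosterol demethylase, had 9.39, 8.31 and 8.39 at day 0 and 9.44 to 10.30 at day 2 (1.31, SE 0.41, adjusted p = 0.49). In Sqle, Msmo1 and Cyp51, too, every day 2 array was above every day 0 array. In each of these enzymes, Hmgcs1 and Fdft1 included, day 0 replicate 1, which has high Hoxb13, was the highest of its group. Day 2 replicate 2, which has low Hoxb13, was the lowest of its own group in each.

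The enzymes differed in the size of the log2 fold change. Mvd (1.70), Lss (0.82), Fdps (0.95) and Nsdhl (0.74) were among the 11, whereas Tm7sf2 (-0.11), Ebp (0.15) and Hsd17b7 (0.44) had day 2 arrays on both sides of their day 0 means. Among the regulators, Srebf2, the SREBP of sterol synthesis, had 6.50, 5.95 and 6.60 at day 0 and 7.12, 7.15, 6.50, 6.78 and 6.94 at day 2 (0.55, adjusted p = 0.75), while Scap (-0.08), Insig2 (0.04) and Srebf1 (0.24) were nearly level. The cholesterol exporters Abca1 (0.12) and Abcg1 (-0.05) and the ubiquitin ligase Mylip (-0.21) are targets of the sterol sensor LXR and were also nearly level. Fatty acid synthesis was not higher as a group. Its 22 tested genes had a median of 0.02, and the 2 with an unadjusted p under 0.05, the triglyceride enzyme Dgat1 (-0.46, adjusted p = 0.70) and the elongase Elovl5 (-0.46, adjusted p = 0.75), were both lower. Over all genes tested, 4.07% were lower at this level.

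**Figure D2:**
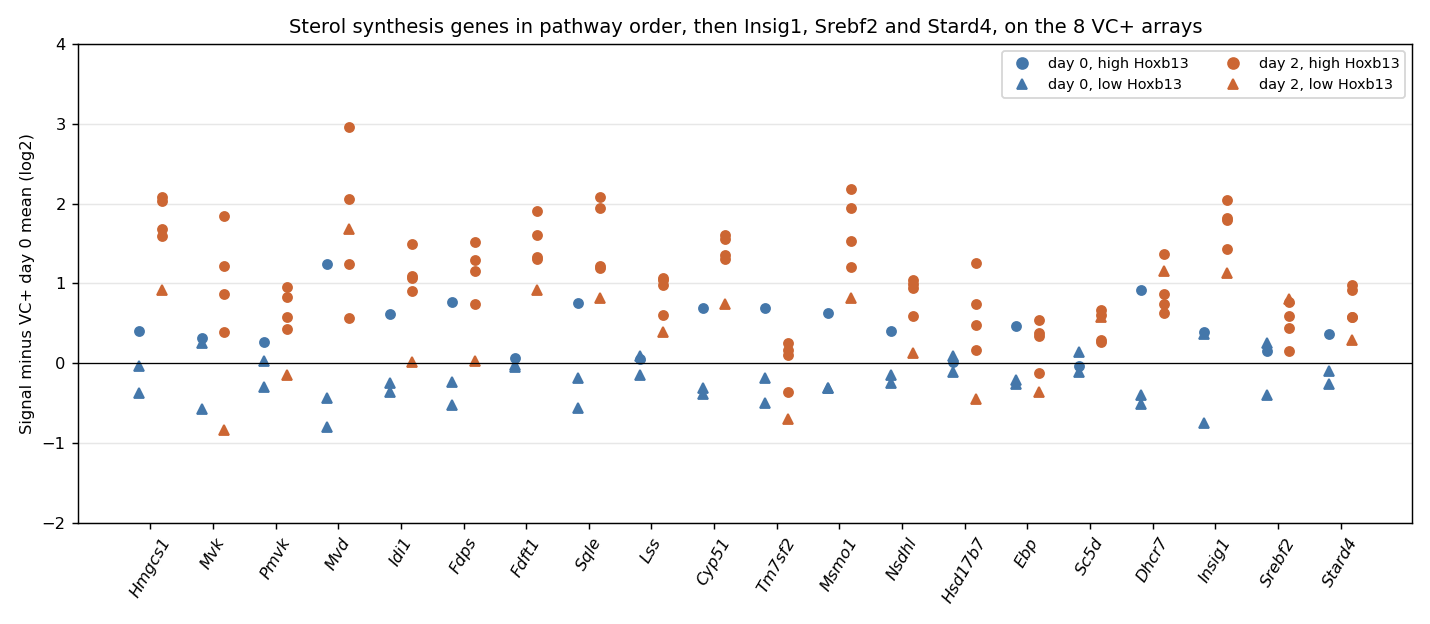
Log2 signal of each VC+ array minus the VC+ day 0 mean (y axis) for sterol synthesis genes in the order of the pathway, followed by Insig1, Srebf2 and Stard4. Circles are arrays with high Hoxb13 and triangles those with low Hoxb13. In Hmgcs1, Fdft1, Sqle, Cyp51, Msmo1 and Insig1 all 5 day 2 arrays lie above all 3 day 0 arrays. In Hmgcs1, Fdft1, Sqle, Msmo1 and Cyp51 the low-Hoxb13 array of day 2 is the lowest of its group.

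Promoters of sterol genes often hold CCAAT boxes, bound by NF-Y, beside the site of SREBP. CCAAT, on either strand, was in the 250 bases before the start of 17 of 22 cholesterol list genes (77.3%), 25 of 34 mitosis genes (73.5%), 20 of 35 DNA replication genes (57.1%) and 34.5% of all promoters. An SREBP site written as TCACNCCAC was found in 1 of the 22, Hmgcs1, and in 1.04% of all promoters. The sequences of Hmgcs1 (chr13:119690169-119690267, plus strand), whose SREBP letters begin at position -137 from the start, and of Insig1 (chr5:28071162-28071245, plus strand) and Msmo1 (chr8:64733584-64733678, minus strand) show these motifs in genes that were higher at day 2. Capitals mark the SREBP letters in Hmgcs1 and CCAAT or its reverse complement in Insig1 and Msmo1.
Hmgcs1: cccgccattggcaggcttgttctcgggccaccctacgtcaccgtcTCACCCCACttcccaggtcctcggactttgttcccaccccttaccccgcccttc
Insig1: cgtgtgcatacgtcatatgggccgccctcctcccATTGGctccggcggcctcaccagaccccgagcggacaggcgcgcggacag
Msmo1: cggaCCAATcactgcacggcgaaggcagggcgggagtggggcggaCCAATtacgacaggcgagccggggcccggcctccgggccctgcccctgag
SREBP sites vary in sequence, and the absence of these letters from a window says nothing of binding.

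Targets of PPAR γ did not move as a group. Of 33 tested PPAR targets and genes of fatty acid oxidation, 24 were lower, with a median of -0.15, and Acot1, an acyl-CoA thioesterase, was the single member with an unadjusted p under 0.05 (5.88, 5.92 and 6.44 at day 0, 3.60 to 5.34 at day 2, log2 fold change -1.44, adjusted p = 0.63). At this level 4.07% of all genes tested were lower. Plin2, which coats lipid droplets, had 10.85, 10.01 and 9.91 at day 0 and 10.55, 10.41, 9.74, 9.68 and 9.71 at day 2, so the groups overlapped (-0.24, adjusted p = 0.996). Fabp2, the intestinal fatty acid binding protein, had 12.14, 12.82 and 13.23 at day 0 and 11.38, 14.06, 12.92, 12.21 and 12.19 at day 2 (-0.18, adjusted p = 0.9999).

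Matrix and muscle genes were higher at day 2. All 30 extracellular matrix genes tested had a positive log2 fold change, with a median of 0.92, 10 with an unadjusted p under 0.05 and 16 without overlap between the days, against 2.51% and 4.17% of all genes tested. Eln, the elastic fibre protein elastin, had 4.70, 3.88 and 5.42 at day 0 and 6.93, 6.71, 7.32, 9.27 and 9.61 at day 2 (log2 fold change 3.30, SE 0.87, adjusted p = 0.33). Col1a1 had 8.67, 8.36 and 8.93 at day 0 and 9.36, 10.33, 9.88, 11.06 and 11.01 at day 2 (1.67, SE 0.53, adjusted p = 0.50), and Col1a2, the second chain of collagen I, showed a difference of 1.77 (SE 0.60, adjusted p = 0.55). Day 2 replicates 4 and 5 were the highest in each, and these are the 2 day 2 arrays with Xist signal. The list had a median of 1.15 among arrays with high and 0.76 among arrays with low Hoxb13, and of 1.03 among arrays with and 0.81 among arrays without Xist signal.

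Smooth muscle genes were higher in 21 of 22, with a median of 0.84, 8 with an unadjusted p under 0.05 and 8 without overlap, where all genes tested gave 2.51% and 4.17%. Actg2 had 12.70, 13.00 and 13.60 at day 0 and 14.36, 13.67, 14.26, 14.32 and 14.49 at day 2 (1.12, SE 0.42, adjusted p = 0.61), and Kcnmb1, a subunit of a muscle potassium channel, had 3.73, 3.85 and 4.30 at day 0 and 5.35, 4.99, 5.81, 5.55 and 6.04 at day 2 (1.59, SE 0.44, adjusted p = 0.37). Within arrays of low Hoxb13 the median of the list was 0.20, against 1.15 within those of high Hoxb13. Endothelial genes (15 tested, median 0.44, none with an unadjusted p under 0.05) and genes of enteric neurons and glia (17 tested, median 0.28, none) were higher on balance as well. The mean of the smooth muscle list was -0.72 to -0.196 on the day 0 arrays and -0.197 to 0.61 on the day 2 arrays, so the days met at their ends. Muscle thus stood higher on most day 2 arrays beside the matrix genes, and its part in the matrix result was not tested.

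Macrophage markers were higher at day 2, as were most genes on the list of EGF receptor ligands and wound repair, while the median of inflammatory cytokines was near 0. None of these genes passed the adjusted test. Mmp3, stromelysin 1, had 2.66, 2.76 and 2.54 at day 0 and 5.35, 5.90, 6.45, 5.77 and 5.33 at day 2, near the floor of the arrays before DSS and above it on all day 2 arrays (log2 fold change 3.11, SE 0.94, adjusted p = 0.45). Adamts4, a protease that cuts proteoglycans, had 2.86, 3.27 and 3.01 at day 0 and 5.08, 5.35, 5.63, 5.36 and 5.36 at day 2 (2.31, SE 0.87, adjusted p = 0.61). Both differences were similar in the arrays with high Hoxb13 (3.06 and 2.50) and with low Hoxb13 (3.25 and 2.21). The days did not overlap in either gene, so only the sizes could differ there. Anxa1, an annexin that dampens inflammation and aids epithelial repair, had 13.19, 11.81 and 12.31 at day 0 and 13.93, 13.88, 14.27, 13.44 and 13.77 at day 2 (1.42, SE 0.33, adjusted p = 0.25). Day 0 replicates 2 and 3, with low Hoxb13, were well below day 0 replicate 1. The difference of Anxa1 was thus smaller among arrays with high Hoxb13 than among those with low Hoxb13. The list of EGF receptor ligands and wound repair genes had 27 of 33 members higher, a median of 0.41, 4 with an unadjusted p under 0.05 and 8 without overlap, beside 2.51% and 4.17% of all genes tested.

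All 23 macrophage and monocyte markers tested were higher at day 2, with a median of 0.63, 5 with an unadjusted p under 0.05 and 8 without overlap, beside 2.51% and 4.17% of all genes tested. Cd68, a lysosomal glycoprotein of macrophages, had 5.71, 5.16 and 5.16 at day 0 and 7.88, 7.83, 7.69, 6.62 and 7.57 at day 2 (2.18, SE 0.67, adjusted p = 0.46). Npl, a sialic acid lyase, had 4.74, 5.84 and 5.57 at day 0 and 7.17, 7.70, 7.22, 6.12 and 7.00 at day 2 (1.66, SE 0.45, adjusted p = 0.34). Replicate 4 was the lowest of the day 2 arrays for both. The median of the list was 0.61 among arrays with high and 0.75 among arrays with low Hoxb13. Neutrophil markers showed no such difference, with a median of 0.00 over 9 tested and none with an unadjusted p under 0.05. Inflammatory cytokines and chemokines had a median of 0.00 over 32 tested. The 2 with an unadjusted p under 0.05, Ccl5 (-3.16) and Ccl25 (-2.30), were lower, as were 4.07% of all genes tested. Their differences were -2.40 and -0.54 among arrays with high Hoxb13 and -0.57 and -2.76 among those with low Hoxb13. Il1b was 3.72 to 4.16 on the 8 arrays, low but above the array medians of 3.41 to 3.55. Il6 was 2.11 to 2.15 and Tnf was 2.12 to 2.39, both near the floor.

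**Figure D3:**
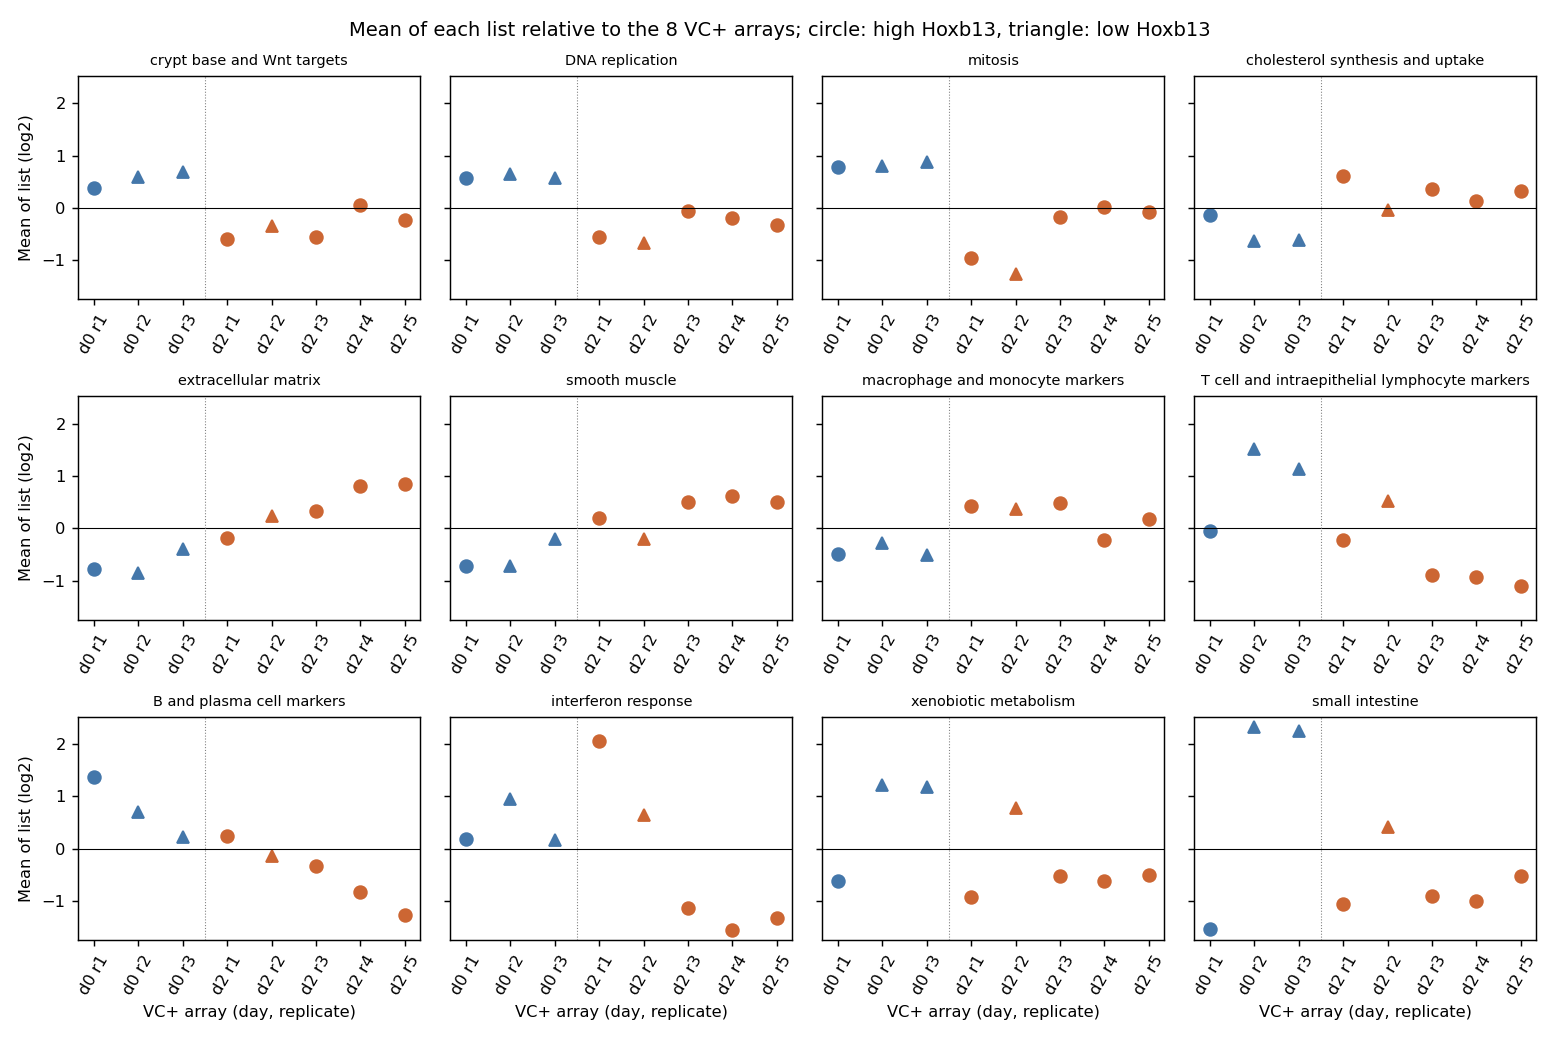
Mean of each gene list on the 8 VC+ arrays, relative to their common mean (y axis, log2), by day and replicate (x axis, d and r). Circles mark high and triangles low Hoxb13. Crypt base, DNA replication and mitosis genes, which are lower at day 2, separate the days on all arrays. So do extracellular matrix, cholesterol and macrophage genes, which are higher, with narrow gaps for the cholesterol and macrophage lists. Xenobiotic and small intestine genes separate the triangles from the circles.

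Lymphocyte genes were lower at day 2. All 13 tested markers of T cells and intraepithelial lymphocytes had a negative log2 fold change, with a median of -1.17, 6 with an unadjusted p under 0.05 and 3 without overlap. Of 15 B and plasma cell markers 14 were lower, with a median of -1.10, 6 with an unadjusted p under 0.05 and 5 without overlap, and the shares over all genes tested were 4.07% and 6.27%. The mean of the T cell and intraepithelial lymphocyte markers overlapped between the days, at -0.05, 1.52 and 1.13 at day 0 and -1.10 to 0.53 at day 2. Cd3d, a chain of the T cell receptor complex, had 4.40, 5.49 and 5.09 at day 0 and 3.79, 4.21, 3.48, 3.54 and 2.75 at day 2 (log2 fold change -1.44, adjusted p = 0.45). Gzmb, the cytotoxic protease granzyme B, had 5.42, 8.80 and 7.66 at day 0 and 5.32, 7.51, 3.33, 3.93 and 2.29 at day 2, so that the groups overlapped (-2.82, adjusted p = 0.57). Replicates 2 and 3 of day 0 and replicate 2 of day 2, the arrays with low Hoxb13, were the 3 highest for Gzmb. Within the arrays of high and low Hoxb13 the median of the T cell list was -0.20 and -0.71. Ikzf3 is counted in both lymphocyte lists and was their single member to pass the adjusted test.

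The B cell genes followed another array. Ms4a1, which encodes CD20, had 9.19, 6.55 and 5.40 at day 0 and 3.98, 4.00, 4.01, 4.06 and 3.94 at day 2 (-3.05, SE 0.78, adjusted p = 0.31), and Cd79b, a part of the B cell receptor, had 8.13, 5.61 and 4.98 at day 0 and 5.16, 3.51, 3.51, 3.52 and 3.48 at day 2 (-2.40, SE 0.67, adjusted p = 0.37, groups overlapping). Day 0 replicate 1 was highest for both, and day 2 arrays were level and low for Ms4a1. The median of the list was -1.65 among arrays with high and -0.54 among arrays with low Hoxb13. Lymphoid follicles are scattered along the colon, and their share in a sample was not measured.

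The interferon response list had a median of -0.65 over 40 genes, but no member had an unadjusted p under 0.05, and the day 2 arrays were split. Relative to the 8 arrays, the mean of the interferon response list was 0.19, 0.95 and 0.16 at day 0 and 2.07, 0.64, -1.14, -1.55 and -1.33 on day 2 replicates 1 to 5. Day 2 replicate 1 was the highest of all 8 arrays and replicates 3, 4 and 5 were the lowest.

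Some large differences rested on day 0 replicates 2 and 3, the low-Hoxb13 arrays of their group. Slc7a9, an amino acid transporter of small intestine and kidney, had 3.22, 9.78 and 9.91 at day 0 and 3.20, 4.89, 3.23, 3.24 and 3.28 at day 2 (log2 fold change -4.07, adjusted p = 0.58), a difference of 0.02 among arrays with high Hoxb13 and of -4.95 among those with low Hoxb13. Aqp8, a water channel of surface colonocytes, had 12.59, 4.72 and 4.67 at day 0 and 11.72, 9.45, 10.18, 11.62 and 11.84 at day 2 (3.63, adjusted p = 0.75), with differences of -1.25 and 4.75. Hoxa9 had 10.49, 7.19 and 7.46 at day 0 and 10.03 to 10.88 at day 2 (2.15, adjusted p = 0.58), with differences of 0.10 and 2.97. In each of these genes day 0 replicates 2 and 3 stood apart from day 0 replicate 1 and from the day 2 arrays, including day 2 replicate 2 with its low Hoxb13. The 37 xenobiotic metabolism genes had a median of -0.66, and of 0.08 and -0.34 within high and low Hoxb13.

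The largest differences without overlap included A4gnt, Cps1 and Dmp1, which are on none of the lists, and Cldn2 of the tight junction and adhesion list. A4gnt, a glycosyltransferase of gland mucin, had 6.70, 8.91 and 8.79 at day 0 and 2.85, 5.70, 2.85, 5.18 and 3.35 at day 2 (-4.14, SE 1.16, adjusted p = 0.37). Cps1, the first enzyme of the urea cycle, had 5.94, 5.96 and 5.77 at day 0 and 5.36 on day 2 replicate 1, against 1.94 on each of the other 4 day 2 arrays (-3.27, adjusted p = 0.54). The separation of the days thus rested on a small gap at 1 array for Cps1 and on wide gaps for A4gnt. Cldn2, a claudin that forms cation pores in crypts, had 6.57, 8.71 and 7.52 at day 0 and 4.83, 6.42, 5.33, 3.02 and 5.11 at day 2 (-2.66, adjusted p = 0.63). Dmp1, a matrix phosphoprotein known from bone, had 3.21, 3.44 and 3.41 at day 0 and 8.06, 7.62, 9.70, 4.96 and 7.34 at day 2 (4.18, SE 1.17, adjusted p = 0.37). Cldn2 had a narrow gap between the days and Dmp1 a wide one. The differences of A4gnt and Dmp1 were similar within high and low Hoxb13 (-3.14 and -3.15 for A4gnt, 4.30 and 4.19 for Dmp1).

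**Figure D4:**
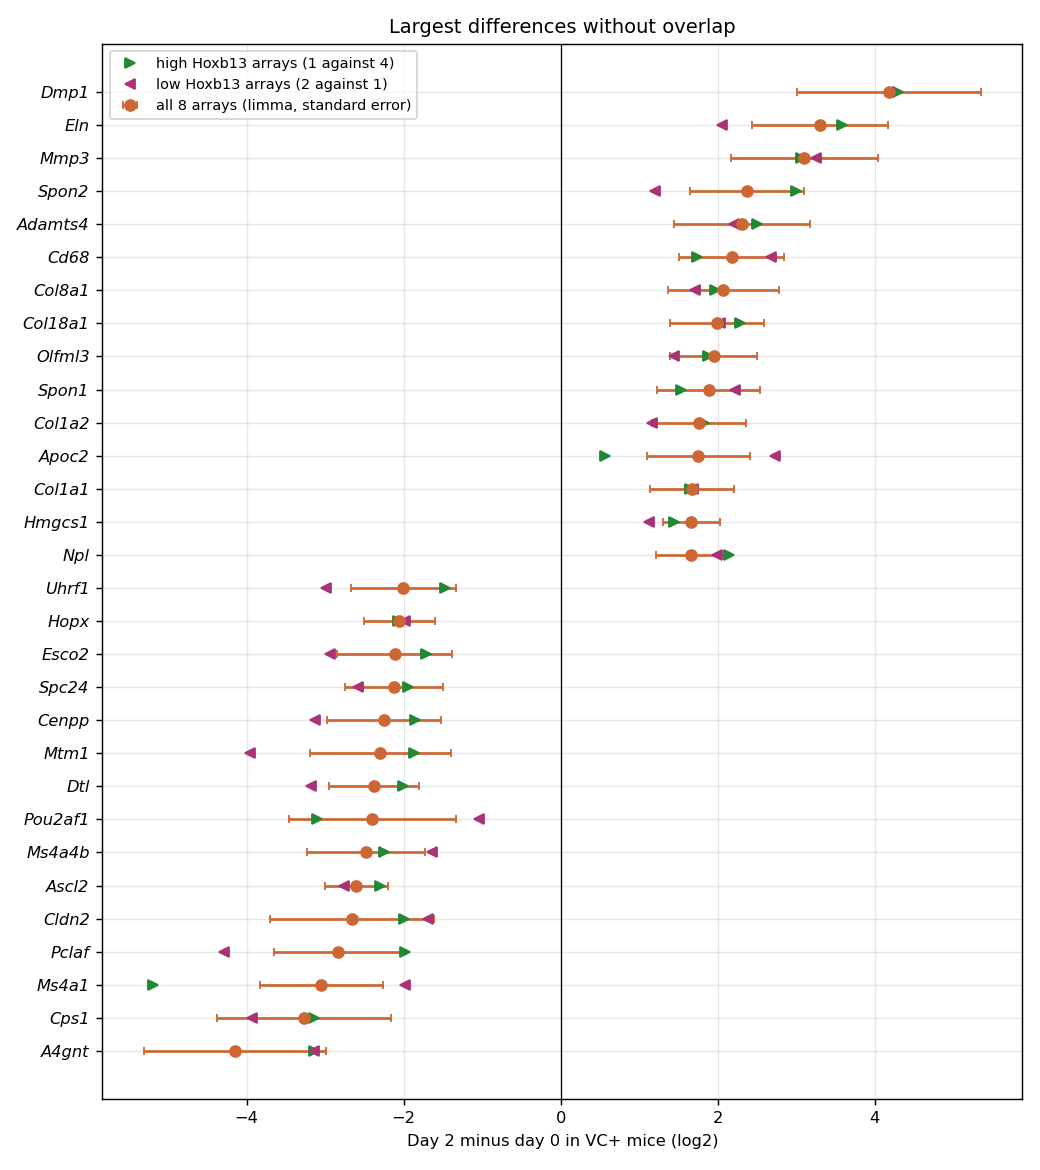
Day 2 minus day 0 in VC+ mice (x axis, log2) for the 15 largest positive and 15 largest negative differences among genes with an unadjusted p under 0.05 and no overlap between the arrays. Circles with bars are limma estimates with standard errors over all arrays, and triangles are differences within the arrays of high and of low Hoxb13. The genes were chosen for no overlap, so their sign could not change within either set. Ms4a1, at -5.19 and -1.98, differs most between the sets of high and low Hoxb13.

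The 15 tested clock genes had a median of 0.18, with 9 higher and 6 lower, and none passed the adjusted test. An unadjusted p under 0.05 was reached by Arntl and Cry1 (0.99), which were higher, and by Dbp and Usp2 (-1.21), which were lower. The shares of all genes tested at this level were 2.51% higher and 4.07% lower. Dbp, a transcription factor with a strong daily rhythm, had 10.24, 10.23 and 11.23 at day 0 and 8.43, 10.50, 5.71, 6.91 and 6.75 at day 2 (-2.91, adjusted p = 0.58). Arntl (BMAL1), which peaks opposite to Dbp, had 8.22, 8.17 and 7.34 at day 0 and 9.32, 8.72, 10.07, 8.96 and 9.34 at day 2 (1.37, adjusted p = 0.70). The days overlapped for Dbp and not for Arntl, and day 2 replicate 3 was lowest for Dbp and highest for Arntl. The hour at which each mouse was killed is not given in the sources used here, and its part in these differences was not tested.

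Other lists had medians close to 0 at day 2, over members that differed in both directions. Differentiated colonocyte markers (24 tested, median -0.09), tight junction and adhesion genes (23, 0.10), the epithelial antimicrobial response (22, 0.03), goblet cell genes (24, 0.24), lysosome genes (41, 0.03) and oxidative phosphorylation (21, -0.07) had at most 2 members with an unadjusted p under 0.05 in either direction. The shares over all genes tested were 2.51% higher and 4.07% lower, so such small counts do not tell these lists from the rest. Log2 fold changes ran from -4.75 to 1.63 for antimicrobial genes, from -2.66 (Cldn2) to 0.82 for tight junction genes and from -1.25 to 2.16 for goblet cell genes, of which 19 of 24 were higher. Muc1, a membrane mucin, was the single goblet list member with an unadjusted p under 0.05 (2.16, adjusted p = 0.64).

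In VC- mice, 1 gene, the secretory pathway gene Agr3, passed the test at day 2 (0.011% of genes tested), and the responses of VC+ and VC- mice differed for 2 genes (0.022%). Agr3 had 5.02, 3.78 and 4.48 in VC- mice at day 0 and 2.35, 2.38 and 2.37 at day 2, while it was 2.32, 2.73 and 2.37 at day 0 and 2.30, 3.34, 2.68, 2.34 and 2.35 at day 2 in VC+ mice. It was therefore near the floor in VC+ mice on both days, and the interaction (the VC+ response minus the VC- response) was 2.19 on the log2 scale (SE 0.37, adjusted p = 0.049). Slc16a9, a carnitine and creatine transporter, had 6.34, 6.16 and 6.81 in VC+ mice at day 0 and 5.56, 5.79, 4.01, 4.77 and 4.25 at day 2, and 6.38, 5.09 and 4.00 in VC- mice at day 0 and 8.19, 7.19 and 8.66 at day 2. The responses had opposite signs, with log2 fold changes of -1.56 and 2.85 and an interaction of -4.41 (adjusted p = 0.049). Leaving out single arrays ended the interaction call of Agr3 in 10 of 14 cases and that of Slc16a9 in 8 of 14, with adjusted p up to 0.207 and 0.198.

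Of the genes called in VC+ mice, Ascl2 (-1.28), Axin2 (-0.80) and Ephb3 (-0.64) had negative log2 fold changes in VC- mice too, and Insig1 (0.32) and Ikzf3 (0.79) had positive ones. No interaction of the 5 passed the test (adjusted p = 0.732, 0.591, 0.816, 0.459 and 0.128 in that order). The day 0 levels of the genotypes differed for some of these genes. Ikzf3 was 2.92, 3.24 and 3.01 in VC- mice at day 0, below all VC+ day 0 arrays and close to the VC+ day 2 arrays. Insig1 was 9.42, 10.19 and 10.03 in VC- mice at day 0, above all VC+ day 0 arrays, and Hmgcs1 was 9.70, 11.34 and 10.97. The part of these day 0 levels in the VC+ differences was not tested. Median log2 fold changes in VC- mice were -0.29 for the crypt base list, -0.52 for DNA replication and -0.88 for mitosis. They were 0.16 for cholesterol genes, -0.03 for matrix genes, -0.62 for smooth muscle and 0.90 for T cell markers. In the smooth muscle list, 12 of 22 genes had an unadjusted interaction p under 0.05, all with VC+ higher (3.29% of all genes tested), and in the T cell list 10 of 13 did, all with VC+ lower (3.18%). No gene of either list passed the adjusted interaction test. Hoxb13 itself had a log2 fold change of 3.18 in VC+ mice and of -5.73 in VC- mice, so this marker of position along the colon differed with the day in opposite directions in the 2 genotypes, and its part in the differences between genotypes was not tested.

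**Figure D5:**
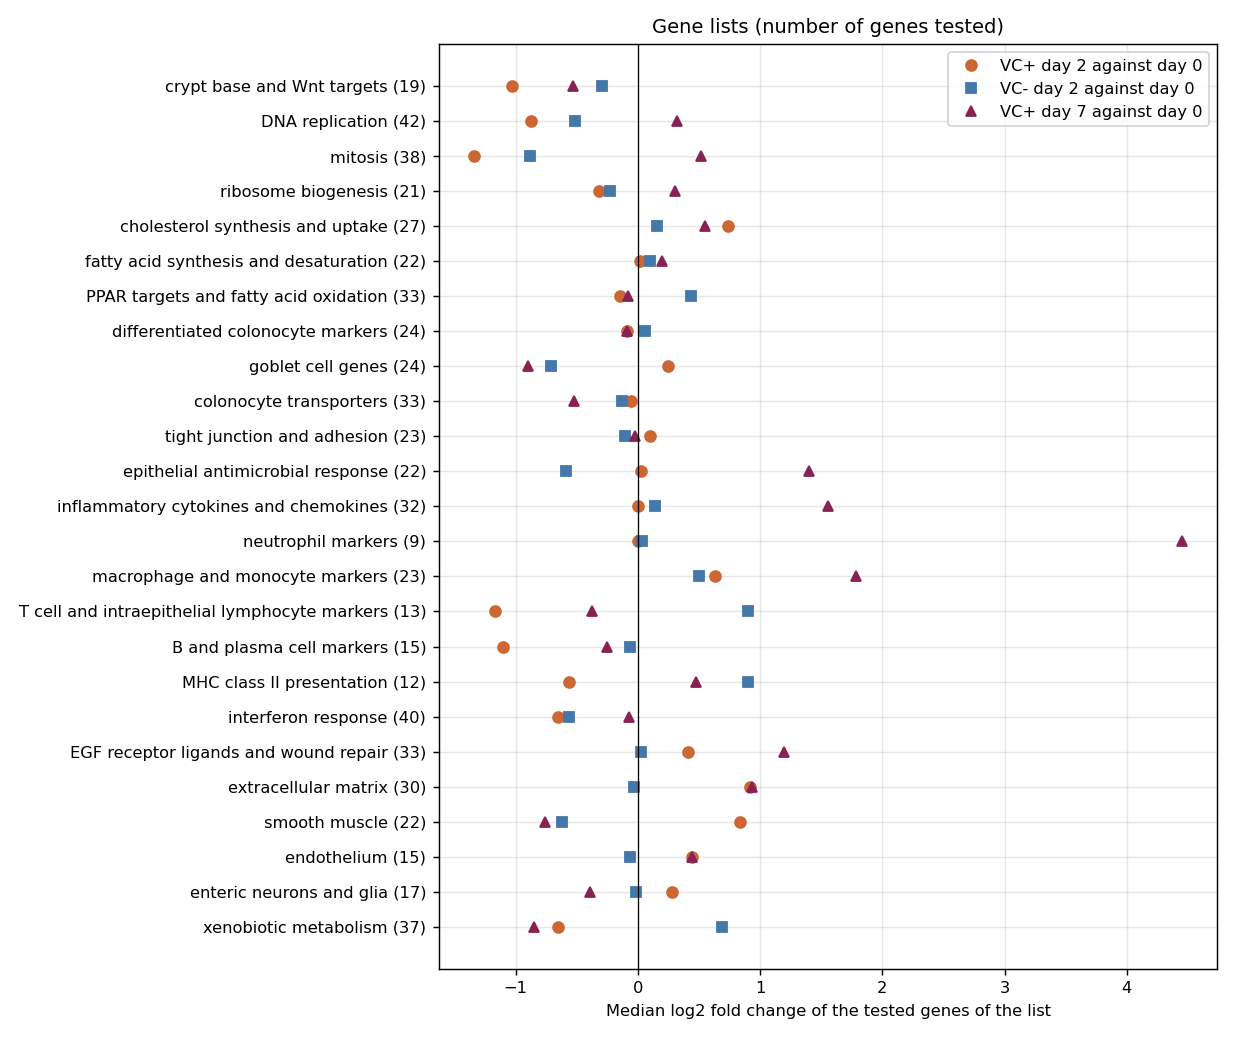
Median log2 fold change (x axis) of the tested genes of each list, with the number tested in parentheses, for VC+ mice at day 2 (circles), VC- mice at day 2 (squares) and VC+ mice at day 7 (triangles), each against day 0 of the same genotype. Mitosis is at -1.34 and -0.88 at day 2 in VC+ and VC- mice and at 0.52 at day 7 in VC+ mice; neutrophil markers are at 0.00, 0.04 and 4.45.

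The later course of the same genes is given by 4 VC+ arrays of day 7, which share the day 0 arrays. At day 7, 159 genes passed the test (1.75%), 120 higher and 39 lower. Ascl2 was 4.96, 3.76, 3.35 and 3.33 and Axin2 was 6.07, 5.92, 4.88 and 4.95 at day 7, and both were still below day 0 (log2 fold changes -2.09 and -1.36, adjusted p = 0.014 and 0.016). In both genes replicates 1 and 2 of day 7 were higher than replicates 3 and 4. Insig1 was 9.72 to 10.44 at day 7 (1.14, adjusted p = 0.0505), above all day 0 arrays. Mmp3 was 9.62, 9.80, 9.64 and 13.68 at day 7 (8.03, adjusted p = 0.000242) and Adamts4 was 6.38 to 9.44 (4.88, adjusted p = 0.0074), so both stood higher at day 7 than at day 2. Il1b, still low on day 2, was 9.26 to 12.74 at day 7 (7.20, adjusted p = 0.00052). Median log2 fold changes of the DNA replication and mitosis lists were 0.32 and 0.52 at day 7, against -0.87 and -1.34 at day 2. The day 7 arrays were split. Relative to the 8 arrays of day 0 and day 2, the mean of the DNA replication list was 1.60, 1.13, -0.07 and 1.05 on day 7 replicates 1 to 4. That of the mitosis list was 2.03, 1.55, 0.04 and 1.72. Replicate 3 was thus below every day 0 array in both lists, and the other day 7 arrays were above. The median of the macrophage list was 1.78 at day 7.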

How the data were processed

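RNA of homogenized colon was hybridized to Affymetrix mouse expression arrays by the authors, who processed the scans with GC-RMA (R 2.10.1 in the submitters' processing notes), so the deposited values are log2 signals that are background-corrected and normalized across the 22 arrays. No depth applies, and the number of arrays limits the precision. Of 45101 probe sets, 34958 carry 1 gene symbol, 932 carry several and 9211 are unlisted in the annotation used. Each of 18194 genes was represented by its most variable probe set (interquartile range over 22 arrays), and the upper 50% (9097 genes) was tested in limma 3.58.1 (R 4.3.3), 6 group means, empirical Bayes and Benjamini-Hochberg adjustment at 0.05. Differences are in log2. The procedure was checked on simulated data. The comparison, its members, 46 gene lists (1168 of 1277 names on the array) and Hoxb13 and Xist as array properties were chosen with earlier results of these data known. Genes named are those called, the 15 largest rises and falls without overlap, up to 6 members of each list with an unadjusted p under 0.05, all cholesterol and crypt list members and genes of the study's PCR; Cdk1, Mki67 and Top2a were added for their promoters. Alternatives changed the filter, probe set rule, scaling, groups fitted, array weights, moderation, covariates, replicate block and arrays left out; differences within Hoxb13 and Xist levels were added after the data were seen. Sequences are from RefSeq (GRCm38.p6), using the first window listed for each gene.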

Additional observations from a re-analysis of the deposited data

Results flagged for a closer look

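The responses of VC+ and VC- mice differed for Agr3 (interaction 2.19 on the log2 scale) and Slc16a9 (interaction -4.41), by limma's test of the interaction. Agr3 lay near the floor of the arrays at days 0 and 2 in VC+ samples and in day 2 VC- samples, so its interaction restates the higher VC- level at day 0. Leaving out single arrays ended the call of Agr3 in 10 of 14 cases and that of Slc16a9 in 8 of 14. Among 108 genes and lists checked, 10 had a single VC+ day 2 array far from the other 4, where chance marks about 1 in 20. Replicate 2, the day 2 array with low Hoxb13, was that array for Actg2 (13.67), Synpo2 (6.95), Slc7a9 (4.89) and for the mean of 4 lists relative to the 8 VC+ arrays: PPAR targets and fatty acid oxidation (0.80), PPAR receptors and partners (0.45), neutrophil markers (0.37) and xenobiotic metabolism (0.77). Replicate 4 was low for Cd68 (6.62), and replicate 1 was high for Cd79b (5.16) and Cps1 (5.36).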

How the results depend on the processing

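The count of genes called at day 2 in VC+ mice (5) depended on the setting: it was 8 with no variance filter, 48 when the fit held only the groups compared, 1287 with array weights, 3 with an intensity trend, 3 with Hoxb13 as a covariate and 8 without the arrays with Prss2. Leaving out single arrays gave 0 to 19, where dropping replicate 2 of VC+ day 0 or replicate 5 of VC+ day 2 gave 0 (292 and 474 at an unadjusted p under 0.05) and dropping replicate 1 of VC+ day 0 gave 19. With the replicate number as a block, 0 genes were called in VC+ mice at day 2 (462 at an unadjusted p under 0.05), 0 in the interaction (490) and 75 in VC+ mice at day 7. Same-number arrays of VC+ day 0 and day 2 had a mean r of 0.28 (-0.038 to 0.465, 2 of 3 pairs above 0.1), against -0.077 for other pairs (3 of 12), and the numbers were not taken as pairs because not every pair was above 0.1. The count at an unadjusted p under 0.05 (598) was 1329 with only the groups compared, 2682 with array weights and 901 without the arrays with Prss2, and 292 to 718 with single arrays left out; 292 came from dropping replicate 2 of VC+ day 0 and 389 from dropping its replicate 3. The count without overlap (949) was 1052 to 2069 with single arrays left out, which follows from comparing fewer arrays. In VC- mice (1) it was 3 with no variance filter, 0 with a filter on low values, 8 with only the groups compared, 3 with array weights and 0 without the arrays with Prss2, and 1 to 3 with single arrays left out (482 and 401 at an unadjusted p under 0.05 where the count was 0). For the interaction (2) it was 0 with no variance filter, a filter on low values, the probe set with the highest mean, an intensity trend, no moderation or without the arrays with Prss2 (557 to 821 at an unadjusted p under 0.05), 340 with array weights, and 0 to 38 with single arrays left out. At day 7 (159) it was 80 with no variance filter, 46 with only the groups compared, 1509 with array weights, 99 with Xist as a covariate and 53 to 209 with single arrays left out. The causes were not tested. The direction of Agr3 in VC+ mice, a difference near 0, turned to -0.067 with array weights and was -0.056 (without VC+ day 2 replicate 2) to 0.258 with single arrays left out. Over 133 results on single genes, 2459 values under alternatives kept direction and side of the threshold, 135 newly passed it and 74 no longer did. Of the list medians under alternatives, 754 moved by less than the spread between arrays and 74 by more. The number of arrays and signals near the arrays' floor limit the precision.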
